A study of Homo sapiens with 6 samples.

Results

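The ligands and receptors of axon guidance were described in Huh7 cells, a human hepatocellular carcinoma line, with and without UBE2S, which extends ubiquitin chains on substrates of the anaphase-promoting complex. They comprised every gene of the deposited count table whose symbol names a semaphorin of class 3 to 7, a plexin, a neuropilin, SLIT1 to SLIT3, ROBO1 to ROBO4, a netrin, an UNC5 receptor or an ephrin, which gave 56 of 20289 genes. Of these, 37 encode ligands and 19 encode receptors. The study asked which genes lie downstream of UBE2S, and sequenced poly(A) RNA of 3 wild-type (WT) and 3 knockout (UBE2S-KO) libraries. All 6 came from Huh7 cells and no treatment, age or further allele is given for either group. How the knockout was made, whether it was 1 clone and whether replicates were separate cultures is not stated in the labels, so p-values reflect no more than the scatter among these libraries, which may be technical.

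Guidance cues steer growing axons, and the same genes shape vessels, epithelia and tumours. Semaphorins act through plexins, whose cytoplasmic part is a GTPase-activating domain for Ras-like GTPases, and secreted class 3 semaphorins mostly need a neuropilin as coreceptor. Slits repel cells through Robo receptors. Netrins act through DCC, neogenin and UNC5 receptors, and membrane-bound ephrins bind Eph receptor tyrosine kinases on the neighbouring cell.

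The libraries held 21840499 to 27910396 estimated counts, and 5.03% to 6.47% of these came from mitochondrially encoded genes. UBE2S itself fell from 224 to 45.7 CPM (counts scaled to one library total). Its log2 fold change was -2.29 with an SE of 0.04 (edgeR adjusted p = 1.6e-12), and it was lower in 3 of 3 knockout libraries. The hepatocyte markers fixed for this work, ALB and HNF4A among them, summed to 31300 to 31900 CPM in wild-type cells and 28400 to 28900 CPM in the knockout, with 2 of 10 genes higher (FGB and APOA1) and 7 lower. Of 10 neuronal markers, ELAVL3, NEFL and STMN2 had 0 counts and RBFOX3 had 1 and 2 counts. The list summed to 80.7 to 84.2 CPM in wild-type cells and 79.8 to 84.1 CPM in the knockout. Most of this sum came from TUBB3, which was lower (55.5 against 45.9 CPM). Of the 5 tested genes, 2 were higher, SNAP25 (7.75 against 13.0 CPM) and SYT1 (14.4 against 17.4 CPM), and 1 was lower. Of 10 endothelial markers, KDR, EMCN and ERG had 0 counts and the list summed to 6.10 to 7.25 CPM against 3.27 to 4.10 CPM, with 1 of 2 tested genes higher and 1 lower. Of 10 stellate cell and fibroblast markers, DES, THY1, DCN and ACTA2 had at most 11 counts in a group and were not tested. The list summed to 25.3 to 26.1 CPM against 33.7 to 35.1 CPM. Of its 6 tested genes, 4 were higher (PDGFRB, PDGFRA, COL1A1 and COL3A1) and 2 lower (RGS5 and LUM). LUM, with 78 counts against 17, passed the low-count filter through wild type alone, so it had to be lower. Immune markers, most of whose counts were from LYZ, summed to 285 to 307 CPM against 176 to 179 CPM, with CD163 and CD3E at 0 and 2 of 3 tested genes lower. The part of these cell types in the results on guidance genes was not tested. In such bulk RNA, a change in the number of cells that express a gene and a change in its RNA per cell cannot be told apart.

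Of the 56 guidance genes, 38 had enough counts to be tested. Of those 38, 19 were higher and 10 lower in the knockout at an edgeR adjusted p below 0.05, together 76.3%. Over all 13265 tested genes 60.1% were called, 29.4% higher and 30.7% lower. The median log2 fold change of the tested guidance genes was 0.21, against -0.00057 over all genes, and their median absolute change was 0.39 against 0.23. Calls were common among all genes, and 16 of the 29 called guidance genes changed by less than 0.5. Of the 38 tested, 13 (34.2%) were called with a change of at least 0.5, against 18.9% of all tested genes. With a change of at least 1, 5 of the 38 (13.2%) were called, against 6.14% of all tested genes. The knockout libraries lay wholly above wild type at 18 of the 38 and wholly below at 10, together 28. Over all tested genes the shares were 32.3% and 33.5%, together 65.9%. EFNB3 passed the low-count filter through the knockout libraries alone, so it had to differ. It is among the 19 higher, the 13 changed by at least 0.5, the 5 by at least 1 and the 18 wholly above. The other 37 tested genes passed the filter in both groups. Of these 37, 18 were higher and 10 lower. A change of at least 0.5 was called at 12 (32.4%) and of at least 1 at 4 (10.8%). Of the same 37, 17 lay wholly above and 10 wholly below, and the median was 0.21.

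The counts in each direction varied by subfamily, where 29.4% of all tested genes were higher and 30.7% lower. Neuropilins, Robo receptors, netrins, and C and D plexins each had 2 of 2 tested genes higher. However, NTN1 lost its call with DESeq2 or without any 1 library but knockout replicate 3, and ROBO1 without knockout replicate 1. The other families with 2 tested genes were slits (1 higher, 0 lower), B plexins (0 higher, 1 lower) and ephrin-B genes (1 higher, EFNB3, and 0 lower). The only tested UNC5 receptor was lower and the only class 7 semaphorin higher. Class 4 semaphorins had 3 of 5 higher and 0 lower, of which SEMA4C lost its call with DESeq2 or without wild-type replicate 1 or knockout replicate 1 or 3. Class 6 semaphorins had 2 of 3 lower and 0 higher, and class 3 semaphorins (2 of 7 higher, 3 lower), A plexins (2 of 3 higher, 1 lower) and ephrin-A genes (1 of 4 higher, 2 lower) went both ways. PLXNA3, 1 of the A plexins counted as higher, lost its call with DESeq2 and without any of 4 libraries. These counts describe small families, and no test set one family against another.

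**Figure D1:**
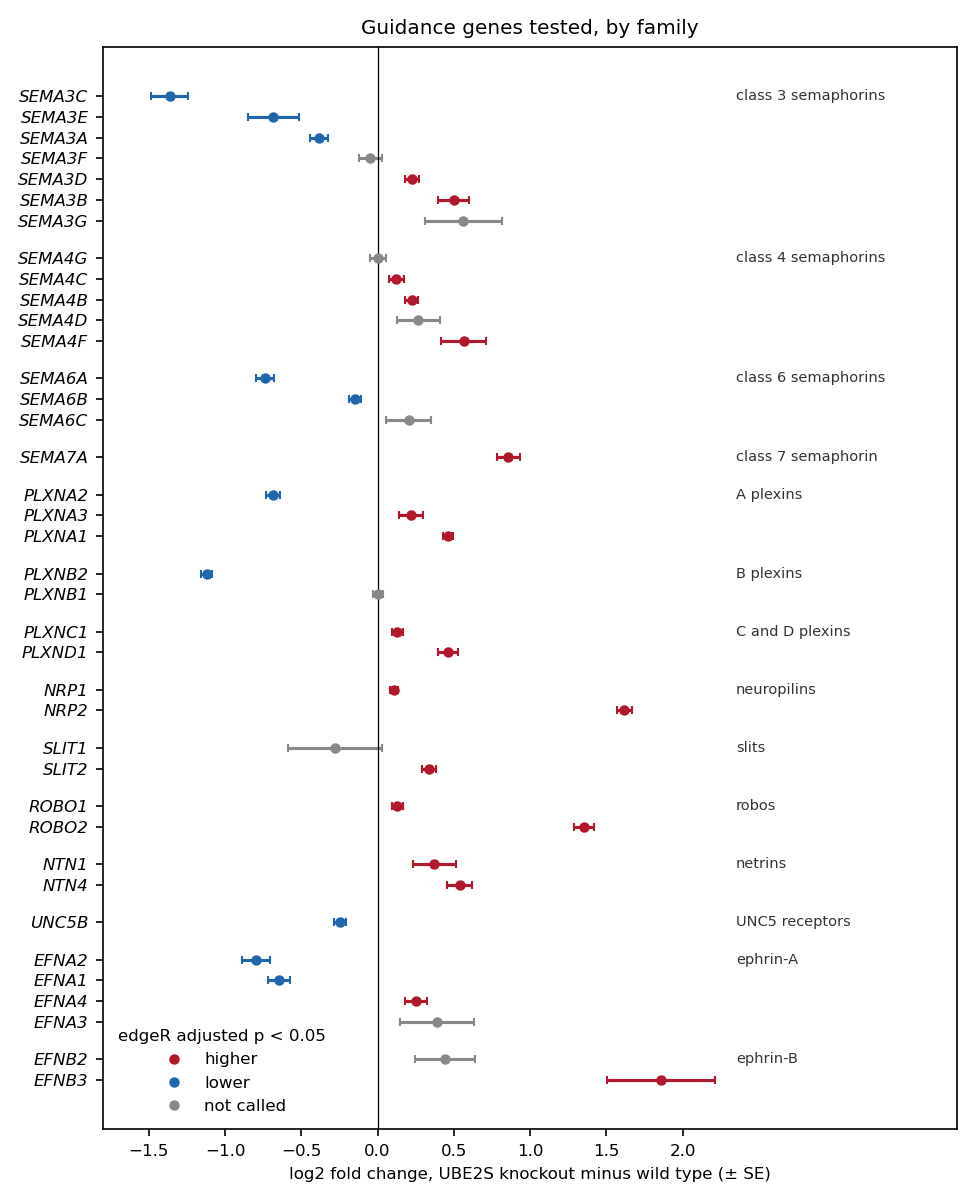
Log2 fold change (knockout minus wild type, x axis) with its SE for the 38 tested guidance genes, grouped by family, with colours for the edgeR call. EFNB3, NRP2 and ROBO2 lie farthest to the right and SEMA3C and PLXNB2 farthest to the left. EFNB3 passed the low-count filter through the knockout alone, so its position and colour are not a result.

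Measured per length, as CPM per kilobase of exon, the most abundant guidance mRNAs of wild-type cells were 4 semaphorin and plexin genes close to one another: SEMA4G (23.1), PLXNB2 (23.0), SEMA6B (20.9) and SEMA4C (20.5 CPM per kilobase). PLXNB1 (18.8), PLXNA1 and ROBO1 (both 17.9) and NRP1 (16.6 CPM per kilobase) followed. In knockout cells PLXNA1 led with 24.8 CPM per kilobase, and PLXNB2 had dropped to 10.6. The most abundant ephrins were EFNA2 (13.5) and EFNA1 (12.5 CPM per kilobase) in wild-type cells, and SLIT2 (8.12) was the leading slit. Exon length was taken over all basic transcripts of a gene, which understates the level of a gene whose cells use a short transcript.

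The other 18 guidance genes had at most 25 counts summed over the 3 libraries of a group and were not tested. SEMA6D had 25 counts in wild type and 23 in the knockout, SEMA4A 13 and 13, UNC5C 11 and 8, UNC5A 8 and 3, PLXNA4 7 and 2, and ROBO3 7 and 4. PLXNB3 had 5 and 6, NTN3 3 and 1, NTN5 2 and 4, NTNG2 3 and 0, EFNB1 2 and 2, SEMA5A 1 and 1, ROBO4 1 and 0, and SLIT3 0 and 1. SEMA5B had 3 counts in wild type and 13 in the knockout, and EFNA5 had 0 and 6. UNC5D and NTNG1 had 0 counts in all 6 libraries. At this depth ROBO4, the endothelial Robo receptor, and DCC, the classical netrin receptor with 7 and 4 counts, were thus close to undetected.

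Class 3 semaphorins are secreted ligands. SEMA3C fell most, by 1.36 as a log2 fold change (SE 0.12, edgeR adjusted p = 9.9e-07). It measured 5.77, 5.49 and 6.06 CPM in the wild-type libraries and 2.18, 2.48 and 2.08 CPM in the knockout libraries. The groups did not overlap, and counts summed to 454 against 160. SEMA3E, which can bind PLXND1 without a neuropilin, measured 2.55, 2.83 and 3.31 CPM in wild-type cells and 1.61, 1.89 and 1.95 CPM in the knockout. It fell by 0.68 (SE 0.17, edgeR adjusted p = 0.0034), again with no overlap between the groups. SEMA3A, the prototype repellent that binds NRP1, fell from 25.5 ± 0.158 to 19.5 ± 1.44 CPM (mean ± SD, n = 3 each; log2 fold change -0.39, SE 0.06). In the other direction, SEMA3D rose from 22.6 ± 0.0625 to 26.4 ± 0.372 CPM (0.23, SE 0.05, edgeR adjusted p = 0.0014).

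SEMA3B lay at 6.66, 5.92 and 5.17 CPM in wild-type cells and at 8.503, 8.59 and 7.98 CPM in the knockout, a rise of 0.50 (SE 0.10, edgeR adjusted p = 0.001) without overlap. SEMA3F, a ligand that prefers NRP2 and whose gene lies near SEMA3B on chromosome 3, was not called, with 786 counts in wild type, 691 in the knockout and a change of -0.05 (SE 0.08). SEMA3G was near 1 CPM with a change of 0.56 (SE 0.25, edgeR adjusted p = 0.071), and passed the threshold without wild-type replicate 1 (edgeR adjusted p = 0.0277). Summed over the class, the level was 73.6 ± 0.786 CPM in wild-type cells and 69.4 ± 1.84 CPM in the knockout. Per length, SEMA3A and SEMA3D each held about the same share of the class in wild type, 25.3% and 26.6%. The knockout shares were 19.7% for SEMA3A and 31.7% for SEMA3D, and that of SEMA3C dropped from 9.005% to 3.57%.

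SEMA3C, SEMA3E, SEMA3A and SEMA3D lie in this order on the minus strand of chromosome 7, between 80742538 and 85186855 in GRCh38 (GENCODE release 29). The first 3 fell and SEMA3D rose. The median log2 fold change of the 25 tested genes on each side was -0.24 for SEMA3C, -0.24 for SEMA3E, -0.24 for SEMA3A and -0.27 for SEMA3D, windows that share most of their genes. SEMA3C thus lay 1.13 below its neighbours, SEMA3E 0.44 and SEMA3A 0.14 below, and SEMA3D 0.49 above them. The upstream sequences of 3 of these genes, without SEMA3A, are shown because genes of 1 class in the same region moved apart. They are the 250 bases before each start listed by RefSeq (GRCh38.p14), 5′ to 3′, and SEMA3C and SEMA3E have 2 starts each.
SEMA3C, chr7:80922390-80922639, minus strand: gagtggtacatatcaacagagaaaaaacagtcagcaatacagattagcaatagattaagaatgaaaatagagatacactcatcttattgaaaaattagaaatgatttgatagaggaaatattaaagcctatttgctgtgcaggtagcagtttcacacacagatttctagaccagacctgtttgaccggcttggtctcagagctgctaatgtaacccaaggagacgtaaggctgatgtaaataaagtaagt
SEMA3C, chr7:80919052-80919301, minus strand: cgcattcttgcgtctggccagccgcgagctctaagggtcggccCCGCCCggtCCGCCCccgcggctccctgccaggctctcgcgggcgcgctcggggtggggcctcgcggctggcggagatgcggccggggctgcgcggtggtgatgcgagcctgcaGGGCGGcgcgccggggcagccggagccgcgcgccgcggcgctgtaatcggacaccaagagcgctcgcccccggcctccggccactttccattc
SEMA3E, chr7:83649140-83649389, minus strand: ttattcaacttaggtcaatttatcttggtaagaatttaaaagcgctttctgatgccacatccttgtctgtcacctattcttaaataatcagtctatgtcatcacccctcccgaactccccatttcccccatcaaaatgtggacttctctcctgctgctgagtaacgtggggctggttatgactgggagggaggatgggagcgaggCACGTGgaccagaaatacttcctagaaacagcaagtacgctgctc
SEMA3E, chr7:83641432-83641681, minus strand: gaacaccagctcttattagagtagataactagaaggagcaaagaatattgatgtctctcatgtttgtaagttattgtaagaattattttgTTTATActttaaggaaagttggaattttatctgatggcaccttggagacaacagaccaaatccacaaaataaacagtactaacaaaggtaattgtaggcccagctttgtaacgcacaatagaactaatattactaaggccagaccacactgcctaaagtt
SEMA3D, chr7:85187057-85187306, minus strand: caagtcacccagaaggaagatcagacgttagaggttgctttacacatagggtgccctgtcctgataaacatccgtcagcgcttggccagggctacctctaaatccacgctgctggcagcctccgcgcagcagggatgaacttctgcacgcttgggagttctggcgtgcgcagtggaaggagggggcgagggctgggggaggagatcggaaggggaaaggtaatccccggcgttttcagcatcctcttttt
Capitals mark matches on either strand to 6 motifs: the core promoter element TATAAA, the NF-Y element spelled CCAAT, the Sp-factor element GGGCGG (here called GC box), the AP-1 element spelled TGACTCA, the E box written as CACGTG, and the TEAD element spelled GGAATG. The SEMA3C sequences differ, with 36.4% G and C and 0 matches at the upstream start against 77.6% and 3 GC boxes at the other. Those of SEMA3E held 1 E box and, at the other start, 1 TATAAA, and that of SEMA3D (57.6% G and C) held 0 matches. Gene-level counts do not show which start was used. Entries were found for 46 of the 56 genes, with 74 starts. GGGCGG occurred in 66.2% of these and in 42.6% of 35116 listed promoters, and CCAAT in 19 of the 74 against 11240 of the 35116. TATAAA was in 2.70% against 10.7%, TGACTCA in 0 of 74 against 4.20%, CACGTG in 4.05% against 6.34% and GGAATG in 8.11% against 11.9%. The median G and C content was 65.4% against 58.0%. These matches describe letters, not bound sites.

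Class 4, 6 and 7 semaphorins are membrane-bound. SEMA7A, the only one with a lipid (GPI) anchor and a ligand of PLXNC1 and of integrins, rose most. Its wild-type libraries measured 9.10, 10.04 and 9.70 CPM and its knockout libraries 18.7, 17.3 and 16.3 CPM. The change was 0.86 (SE 0.07, edgeR adjusted p = 7.3e-07) and the groups did not overlap, while the median of its neighbours was 0.29. PLXNC1, its receptor, measured 95.1, 94.5 and 94.2 CPM against 107.7, 99.5 and 103.4 CPM, a small rise of 0.13 (SE 0.04, edgeR adjusted p = 0.007). ITGB1, the integrin chain through which SEMA7A can also act, rose by 0.27 (SE 0.03; named after its value was seen).

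SEMA6A, a transmembrane ligand of A plexins, measured 57.9, 52.4 and 51.5 CPM in wild-type cells and 34.2, 32.8 and 30.2 CPM in the knockout. It fell by 0.74 (SE 0.06, edgeR adjusted p = 3.4e-07), with neighbours at -0.06. PLXNA2, one of its receptors, fell too (-0.69, SE 0.05). SEMA6B fell slightly, from 85.6, 80.8 and 83.1 CPM to 76.6, 72.3 and 76.6 CPM (-0.15, SE 0.04, edgeR adjusted p = 0.0049), whereas its neighbours on chromosome 19 had a median of -0.52. SEMA6C was not called (0.21, SE 0.15), and ranged from 0.11 to 0.35 with 1 library left out at a time.

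Among class 4 semaphorins, which act mainly through B plexins, SEMA4F measured 2.63, 3.26 and 3.03 CPM in wild-type cells and 4.68, 4.87 and 3.66 CPM in the knockout. The rise was 0.57 (SE 0.15, edgeR adjusted p = 0.0049) and the groups did not overlap. SEMA4B rose from 41.0 ± 1.53 to 47.9 ± 0.433 CPM (0.23, SE 0.04), which was also the median of its neighbours to within 0.0112. SEMA4C, a ligand of PLXNB2, measured 67.7, 74.9 and 75.3 CPM against 80.5, 74.8 and 81.7 CPM. Its groups overlapped, and its small rise (0.12, SE 0.05, edgeR adjusted p = 0.045) was not called with DESeq2 (adjusted p = 0.0781) or when wild-type replicate 1 or knockout replicate 1 or 3 was left out. SEMA4D, a ligand of PLXNB1, was not called (0.27, SE 0.14). SEMA4G was at 101.4 ± 9.56 and 101.6 ± 1.10 CPM and not called, but was called higher by 0.083 without wild-type replicate 1 (edgeR adjusted p = 0.0171). SEMA4G shares 16.8% of its exon bases with MRPL43 on the opposite strand, and its counts were not whole numbers, so its level is uncertain. Among called guidance genes, counts of SEMA3E in every library and of PLXNC1 in most were not whole numbers either.

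Neuropilins are coreceptors for class 3 semaphorins and for vascular endothelial growth factors. NRP2 had the largest change of any guidance gene above 1 CPM in both groups. It measured 17.5, 18.4 and 17.1 CPM in the wild-type libraries and 54.8, 54.4 and 53.5 CPM in the knockout libraries. The lowest knockout library was far above the highest wild-type library, and NRP2 rose 3.07-fold (log2 value 1.62, SE 0.05, edgeR adjusted p = 4.9e-11). The gene lies on chromosome 2 from 205681990 to 205798133, plus strand, where its neighbours had a median of -0.04. NRP1 measured 180.3, 177.9 and 179.3 CPM against 194.9, 190.5 and 194.0 CPM, a rise of 0.11 (SE 0.03, edgeR adjusted p = 0.0049) that was small but did not overlap. Per length, NRP2 made up 9.29%, 9.82% and 9.13% of neuropilin mRNA in wild-type libraries and 22.8%, 23.1% and 22.5% in the knockout. Such a share does not depend on how libraries are scaled, and NRP1 remained the more abundant neuropilin in all 6 libraries. The sequence before the RefSeq start of NRP2 is shown since no other guidance gene above 1 CPM in both groups changed as much.
NRP2, chr2:205682251-205682500, plus strand: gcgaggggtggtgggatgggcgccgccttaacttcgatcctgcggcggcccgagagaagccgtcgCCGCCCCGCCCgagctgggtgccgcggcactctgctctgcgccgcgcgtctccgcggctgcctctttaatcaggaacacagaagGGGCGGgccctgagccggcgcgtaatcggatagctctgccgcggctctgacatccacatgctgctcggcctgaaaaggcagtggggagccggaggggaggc
It holds 70.0% G and C and 29 CpG pairs, against a median of 11 over all listed promoters. The capitals mark 3 GC boxes, 2 of which overlap.

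Plexins are the signalling receptors. PLXNB2 fell most, from 152.8, 143.0 and 145.4 CPM in wild type to 67.3, 67.0 and 68.6 CPM in the knockout. The knockout libraries were close together and all lay well below wild type, a 2.18-fold fall (log2 value -1.12, SE 0.04, edgeR adjusted p = 1.2e-10). The gene lies on chromosome 22 from 50274979 to 50307627, minus strand, and its neighbours had a median of -0.43. PLXNB1, the receptor of SEMA4D, had 138.1 ± 2.10 CPM in wild-type cells and 138.5 ± 5.57 CPM in the knockout and was not called. The share of PLXNB2 in B plexin mRNA per length dropped from 55.0% ± 1.23 to 36.0% ± 0.991, and that of PLXNB1 went from 44.95% ± 1.22 to 64.0% ± 0.989 (SD, n = 3 each). PLXNB2 led in 3 of 3 wild-type libraries and PLXNB1 in 3 of 3 knockout libraries.

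The A plexins pair with neuropilins. PLXNA1 measured 167.1, 158.6 and 162.3 CPM in wild-type cells and 228.9, 218.5 and 226.0 CPM in the knockout, a rise of 0.46 (SE 0.03, edgeR adjusted p = 9.3e-08). In contrast, PLXNA2 measured 44.0, 42.0 and 42.3 CPM against 26.9, 25.7 and 27.1 CPM, a fall of 0.69 (SE 0.05, edgeR adjusted p = 8.6e-08). Neither gene's groups overlapped, and the neighbours of both were near 0 (medians 0.04 and -0.04). The share of PLXNA2 in A plexin mRNA per length went from 16.1% ± 0.0908 to 8.07% ± 0.0961. PLXNA3 was higher by 0.22 (SE 0.08, edgeR adjusted p = 0.025), but its groups overlapped. Its call was lost with DESeq2 (adjusted p = 0.0731) and without wild-type replicate 2 or 3 or knockout replicate 1 or 3. PLXND1, the receptor of SEMA3E, rose from 17.7 ± 1.53 to 24.5 ± 1.17 CPM (0.46, SE 0.07, edgeR adjusted p = 7.9e-05) while SEMA3E itself fell.

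**Figure D2:**
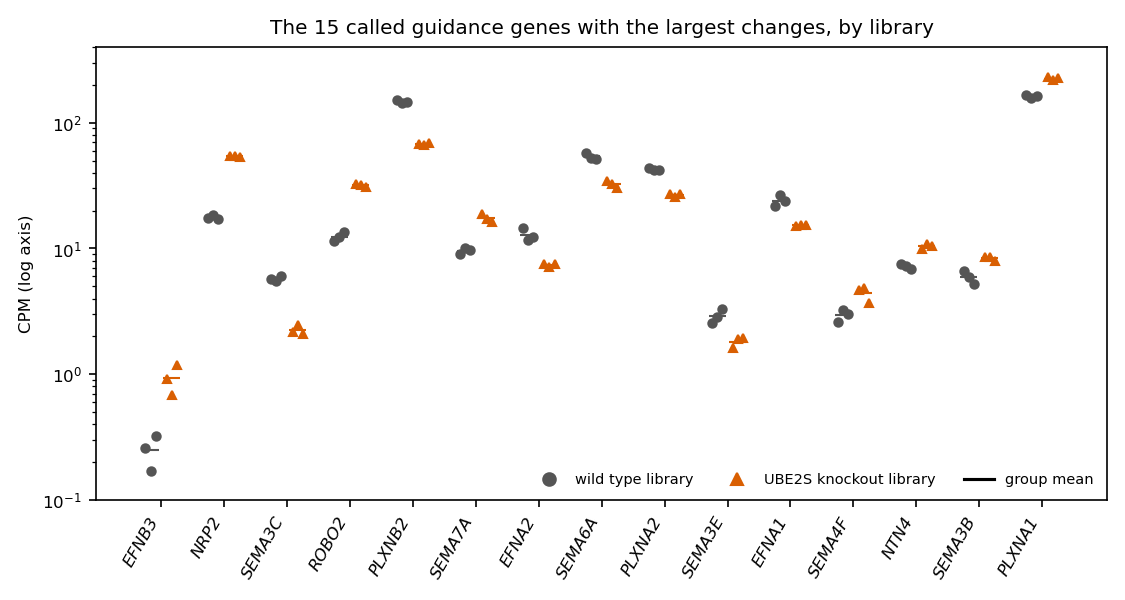
CPM on a log axis in each wild-type (circles) and knockout (triangles) library, with group means as lines, for the 15 called guidance genes with the largest absolute log2 fold change. In each of the 15 the 3 knockout values lie wholly above or wholly below the 3 wild-type values. The genes were chosen by call and size of change, so this separation largely follows from the choice. Over all tested genes 65.9% were separated in this way. EFNB3 is the only one with all libraries below 1.2 CPM, and it passed the low-count filter through the knockout alone, so it had to differ.

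In the Slit and Robo pathway, ROBO2 measured 11.4, 12.4 and 13.5 CPM in wild-type cells and 32.8, 31.8 and 30.8 CPM in the knockout. It rose 2.55-fold (log2 value 1.35, SE 0.06, edgeR adjusted p = 4.1e-09), and no library of one group reached the other. ROBO1, the more abundant receptor, measured 146.0, 137.2 and 136.1 CPM against 157.5, 149.1 and 151.7 CPM. Its rise of 0.13 (SE 0.04, edgeR adjusted p = 0.0082) was not called without knockout replicate 1 (0.11, edgeR adjusted p = 0.0518). ROBO2 (75906695 to 77649964) and ROBO1 (78597240 to 79767815) lie side by side on chromosome 3 on opposite strands, and their neighbours had the same median of -0.14. Per length, ROBO2 made up 6.82% ± 0.744 of Robo mRNA in wild type and 14.6% ± 0.315 in the knockout. SLIT2, their secreted ligand, measured 56.5, 56.1 and 51.8 CPM against 69.9, 65.7 and 71.8 CPM and rose by 0.34 (SE 0.05, edgeR adjusted p = 4.6e-05). SLIT1 was below 1 CPM on average in both groups and not called (-0.28, SE 0.31, and -0.62 to -0.02 with 1 library left out at a time), and it shares exon bases with a read-through gene, ARHGAP19-SLIT1.

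**Figure D3:**
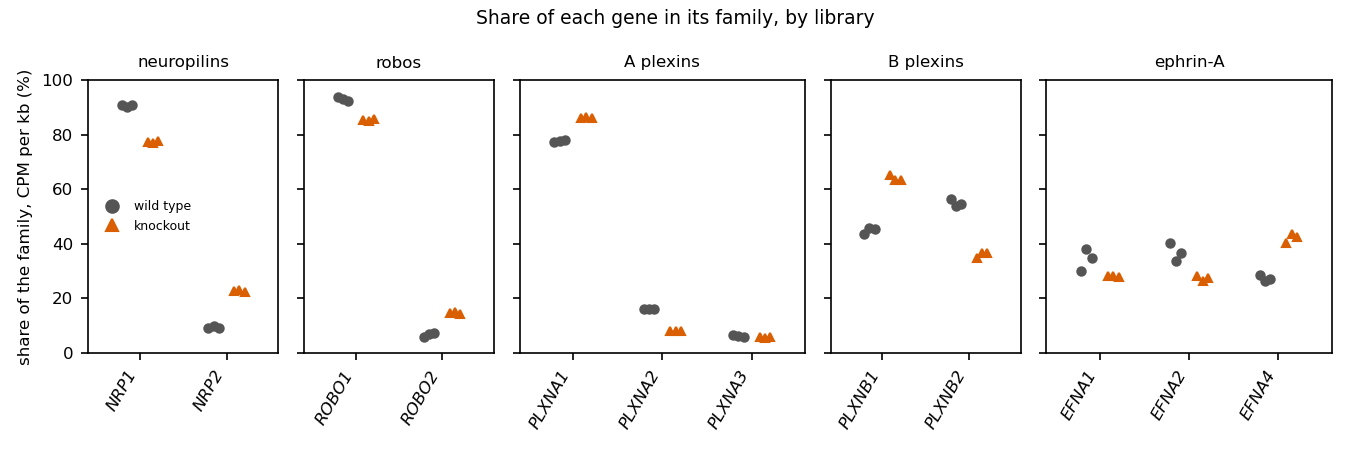
Share of a gene in the summed CPM per kilobase of its family (y axis, percent) in each wild-type (circles) and knockout (triangles) library. NRP2, ROBO2, PLXNA1, PLXNB1 and EFNA4 hold a larger share in all 3 knockout libraries than in any wild-type library.

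NTN4, a netrin of basement membranes, measured 7.54, 7.25 and 6.81 CPM in wild-type cells and 9.91, 10.9 and 10.6 CPM in the knockout, a rise of 0.54 (SE 0.08, edgeR adjusted p = 9.0e-05) without overlap. NTN1, the classical attractant, was at 2.74 ± 0.00540 and 3.56 ± 0.516 CPM. Its call (0.37, SE 0.14, edgeR adjusted p = 0.038) was lost with DESeq2 (adjusted p = 0.174) and when any 1 library other than knockout replicate 3 was left out (edgeR adjusted p between 0.0506 and 0.176). UNC5B, a repulsive netrin receptor, fell from 76.8, 75.4 and 76.4 CPM to 61.6, 67.0 and 64.4 CPM, a change of -0.25 (SE 0.04, edgeR adjusted p = 1.3e-04). The genes around UNC5B on chromosome 10 had a median of 0.59, the highest of any called guidance gene, so UNC5B lay 0.83 below them. NEO1, the neogenin gene for another netrin receptor, rose from 41.5 ± 1.26 to 70.5 ± 0.625 CPM (0.76, SE 0.04).

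Ephrin-A ligands are held at the membrane by a lipid anchor. EFNA2 measured 14.4, 11.6 and 12.3 CPM in wild-type cells and 7.46, 7.10 and 7.56 CPM in the knockout, a fall of 0.80 (SE 0.09, edgeR adjusted p = 1.0e-05) against neighbours at -0.42 on chromosome 19. EFNA1, a ligand of EPHA2, measured 21.8, 26.6 and 23.9 CPM against 15.1, 15.3 and 15.5 CPM. It fell by 0.65 (SE 0.07, edgeR adjusted p = 7.5e-06), and neither gene's groups overlapped. EFNA4 rose from 12.6 ± 0.780 to 15.04 ± 0.854 CPM (0.25, SE 0.07, edgeR adjusted p = 0.009). EFNA4, EFNA3 and EFNA1 are close neighbours on chromosome 1 around genes with medians of 0.16, so EFNA1 went against them. EFNA3 (0.39, SE 0.24, and 0.20 to 0.49 with 1 library left out at a time) was not called, and EFNA3 and EFNA4 share 853 and 189 exon bases with a read-through gene, which makes their values uncertain. The 3 abundant ligands had 34.3% (EFNA1), 36.9% (EFNA2) and 27.4% (EFNA4) of ephrin-A mRNA per length in wild-type cells, and 28.1%, 27.4% and 42.0% in the knockout. Summed ephrin-A mRNA fell from 50.4 ± 0.974 to 39.0 ± 0.732 CPM.

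Ephrin-B ligands span the membrane and were scarce. EFNB3 measured 0.259, 0.172 and 0.321 CPM in wild-type cells and 0.909, 0.684 and 1.20 CPM in the knockout. It had 20 counts against 67. All 3 knockout libraries lay above wild type, at a level where few reads decide the value. No p-value is given, and its call in the figures is not a result, because EFNB3 passed the low-count filter through the knockout alone. EFNB2, near 2 CPM, was not called (0.44, SE 0.20, edgeR adjusted p = 0.068), but was without wild-type replicate 1 (edgeR adjusted p = 0.00988) or knockout replicate 1 (0.0309). Of 14 Eph receptors, 6 were tested, 3 were lower and 0 higher, with a median of -0.47. The shares over all tested genes were 30.7% and 29.4%. EPHA5 fell from 37.6 ± 1.14 to 21.8 ± 0.860 CPM (-0.79, SE 0.05), EPHB4, the receptor of EFNB2, from 152.8 ± 2.16 to 105.3 ± 3.72 CPM (-0.54, SE 0.03), and EPHA2 by 0.17 (SE 0.03) from 220.6 CPM. EPHA6, EPHB3 and EPHA1 were below 2 CPM and not called.

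Other guidance receptors, ligands and coreceptors on the list had 14 of 26 genes tested, 6 higher and 4 lower, with a median of 0.09, where 29.4% and 30.7% of all tested genes were higher and lower. L1CAM, an axonal adhesion molecule that can take part in semaphorin receptor complexes, fell from 15.1 ± 0.575 to 0.212 ± 0.0770 CPM (-6.13, SE 0.16). With only 15 counts in the knockout, this SE probably understates the error. L1CAM passed the low-count filter through wild type alone, so it had to be lower, and its call is not a result. The same holds for CNTN1, with 66 counts in wild type and 2 in the knockout. Both are among the 4 lower. The change of L1CAM ranged from -6.449 to -5.925 with 1 library left out at a time. NRCAM, a relative of L1CAM, rose from 137.1 to 228.2 CPM (0.74, SE 0.03, named after its value was seen). MCAM, an adhesion molecule that binds netrins, rose from 7.58 ± 0.336 to 19.7 ± 1.21 CPM (1.38, SE 0.07), and the glypican gene GPC1, whose product binds slits, by 0.81 (SE 0.10). MET, a receptor tyrosine kinase that associates with B plexins, fell from 148.6 to 111.4 CPM (-0.42, SE 0.03), and FLRT3 fell by 0.15 (SE 0.04). In contrast, FLRT2 rose by 0.37 (SE 0.05, named after its value was seen).

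Effectors of plexins had 12 of 23 tested genes higher and 6 lower, with a median of 0.21, beside 29.4% higher and 30.7% lower over all tested genes. The collapsin response mediator genes, which link semaphorin signals to microtubules, went both ways: DPYSL5 rose by 1.27 (SE 0.05), with 1177 counts against 2588, and DPYSL3 by 0.76 (SE 0.04), while DPYSL2 fell from 71.2 ± 3.82 to 37.8 ± 1.81 CPM (-0.92, SE 0.05). The kinase gene FES rose by 0.91 (SE 0.05). MICAL3, of the actin-oxidising MICAL family, and SH3BP1 fell by 0.52 (SE 0.03) and 0.42 (SE 0.09). In the same family MICAL1 and MICAL2 rose by 0.25 (SE 0.07) and 0.30 (SE 0.03), both named after their values were seen. Slit, Robo and netrin effectors had 8 of 20 higher, 8 lower and a median of -0.02, against the same shares of all genes. Among them the Slit-Robo GTPase-activating gene SRGAP2 fell by 0.43 (SE 0.05) and SRGAP3 rose by 0.40 (SE 0.07). CAP1, an actin regulator, fell from 333.2 to 214.1 CPM (-0.64, SE 0.03).

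Each called guidance gene was set beside its chromosome neighbours, since neighbouring genes in these libraries often shifted together. Of the 29, 17 (58.6%) had the sign of their neighbours' median, against 68.7% of 7960 called genes with neighbours. EFNB3, which had to differ because of the low-count filter, is among the 29 and the 17. The other 12 had the opposite sign, a rule that ignores how far the neighbours had moved. They included UNC5B, SEMA3D, EFNA1 and ROBO2, with neighbour medians of 0.59, -0.27, 0.16 and -0.14. They also included NRP2, SLIT2, SEMA4F and NTN4, whose neighbours were near 0 (-0.04, -0.05, -0.06 and -0.08). PLXNB2, EFNA2, SEMA3C, SEMA3E and SEMA3A moved with neighbours that were themselves lower, and each lay below those neighbours. What the neighbourhood contributed to each change was not tested.

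**Figure D4:**
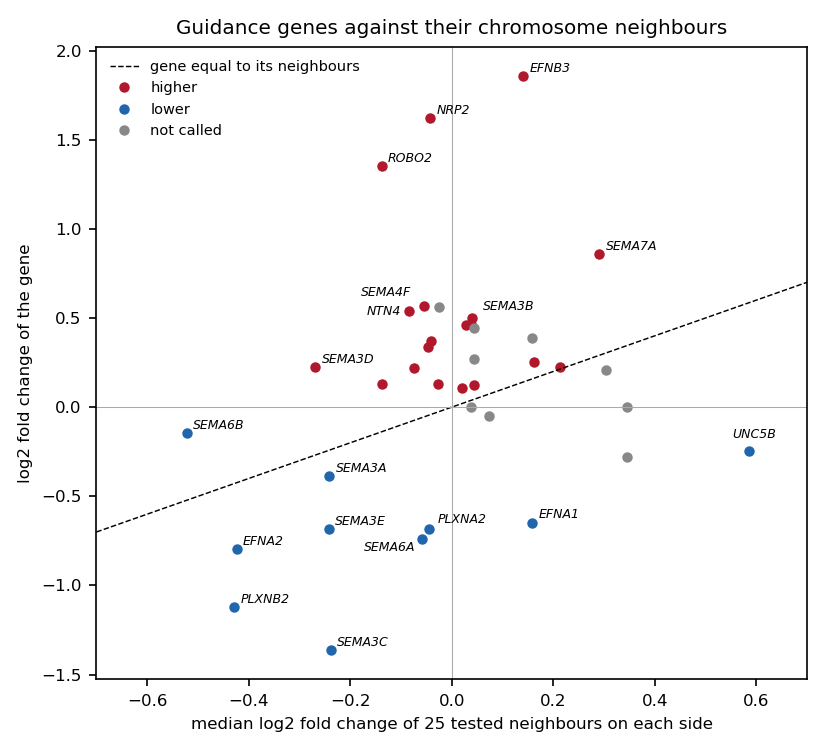
Log2 fold change of each of the 38 tested guidance genes (y axis) against the median log2 fold change of the 25 tested genes on each side of it (x axis), with the line of equality dashed and colours for the edgeR call. NRP2 and ROBO2 lie high above neighbours near or below 0, and UNC5B lies below 0 at the far right. The height and colour of EFNB3 are not a result, because of the low-count filter.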

How the data were processed

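RNA of 3 wild-type and 3 UBE2S knockout libraries was measured. The values the authors deposited are estimated counts, not normalized, in 1 table. Bowtie2 2.2.8, HISAT2, StringTie 1.3.1 and DESeq2 are named, with no role, per the submitters' processing notes. The counting program, build, annotation and strandedness are not stated in the labels or header, so antisense reads cannot be told apart. Groups came from sample titles.

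Counts were rounded, filtered with filterByExpr (minimum count 10) and scaled by TMM, which left 13265 of 20289 genes. Knockout was compared with wild type by the quasi-likelihood test of edgeR 4.0.16 (R 4.3.3), no covariate, with Benjamini-Hochberg adjustment over all tested genes and a threshold of 0.05. Each SE is the absolute log2 fold change divided by the square root of the F statistic of that test. Such a derived SE can be too small for a large change with few counts in 1 group. Positions and exon lengths came from GENCODE release 29 by gene identifier (99.4% matched). The guidance genes, other lists and rules were chosen with earlier results of these data known. Values per library are given for the 15 called guidance genes with the largest change and called ones of at least 50 CPM. From other lists up to 3 called genes per direction of at least 5 CPM were named. Alternatives were RLE and upper quartile scaling, 2 other filters, DESeq2 1.42.0, limma-voom (limma 3.58.1), a replicate block and leaving out each library. One other list is not reported here.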

Additional observations from a re-analysis of the deposited data

How the results depend on the processing

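Of the 38 tested guidance genes, 38 kept their direction and call under RLE scaling, upper quartile scaling, no low-count filter, limma-voom and the replicate block, and 36 of 36 did so with a mean of at least 1 CPM. DESeq2 lost 3 calls (NTN1, PLXNA3 and SEMA4C). The number lower was 10 under every alternative run, and the number higher was 16 to 20 with 1 library left out. With the replicate number as a block, 19 were higher and 10 lower. The numbers do not pair the libraries: deviations of same-numbered libraries correlated at 0.0241, -0.0369 and 0.0173 across genes. With 1 library left out at a time, the uncalled PLXNB1, at 0.00 with all libraries, ranged from -0.028 to 0.028, and SEMA4G, also near 0, from -0.044 to 0.083. Summed neuropilin CPM had a log2 ratio of 0.33, and 0.343 under upper quartile scaling, since that scaling raised all knockout values slightly (median of all genes 0.0132). Leaving out libraries for the summed family levels was an alternative chosen after seeing the data. Depth limits the 18 untested genes, EFNB3 and other genes near 1 CPM most.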

Other observations

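Effectors of ephrins and Eph receptors fell at 9 of 14 tested genes and rose at 3 (median -0.29), where 30.7% of all tested genes fell and 29.4% rose. VAV3, a guanine nucleotide exchange factor, fell from 15.8 ± 0.451 to 3.47 ± 0.155 CPM (-2.18, SE 0.08), and ARHGEF16 (-1.02, SE 0.09) and CHN2 (-0.82, SE 0.08) also fell. TIAM2, an exchange factor for Rac, rose from 5.43 ± 0.624 to 12.8 ± 0.415 CPM (1.24, SE 0.09), and KALRN rose by 0.37 (SE 0.05). SDCBP was close to the threshold (0.09, SE 0.04, edgeR adjusted p = 0.048) and was not called with DESeq2 (adjusted p = 0.121) or with the replicate block (0.0507), nor without a low-count filter (edgeR adjusted p = 0.0577) or without any 1 library but wild-type replicate 3.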
